A study of Mus musculus with 2 samples.

Results

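The 9 genes described here, Lama3, Lamb3, Itga6, Itgb4, Col17a1, Itga3, Itgb1, Itga2 and Itgb6, build the hemidesmosome, the laminin-332 beneath it and the other integrins of the epithelial surface. They were chosen by symbol, and all 9 were found among the 19626 genes of the count matrix. Single cells of the mouse incisor, dissected around the cervical loop with epithelium and mesenchyme together, were sequenced as 2 droplet libraries that count unique molecular identifiers (UMIs) near the 3′ end of transcripts. One library came from 1 control mouse and the other from 1 Memo1;K14CRE mouse, both at postnatal day 20. K14 (keratin 14) drives Cre in epithelium, so loss of Memo1 is directed at the epithelium, and the labels give neither the alleles of the control nor the deleted part of Memo1.

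Hemidesmosomes rivet the base of an epithelial cell to its basement membrane. The integrin α6β4 and collagen XVII span the membrane, bind laminin-332 outside and hold the keratin network inside through plectin and the dystonin protein BP230. Ameloblasts, the epithelial cells that make enamel, depend on these molecules: mutations of laminin-332, integrin β4, integrin β6 or collagen XVII cause enamel defects in people or mice, and mature ameloblasts attach to enamel by a basal lamina that contains laminin-332.

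The control library held 9708 cells with a median of 2643 UMIs, and the mutant library 13820 cells with a median of 6798. The authors had assigned 2981 control and 2303 mutant cells to the ameloblast lineage, with medians of 5364 and 2174 UMIs, and had numbered 9 clusters within it and 29 clusters over all cells. In all, 139 cell barcodes occurred in both libraries, and 52 mutant lineage cells carried one of them. Levels are in CPM, a gene's counts summed over the cells of a cluster and scaled to the total of all counts of those cells. Each ratio is mutant over control with a 95% interval that covers counting error only. A gene was measured at a mean of 10 CPM or more with at least 20 counts, and it was called higher or lower where the ratio reached 1.5-fold and the interval excluded 1. With 1 mouse per group no test between mice was possible, so "higher" and "lower" describe these 2 libraries.

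Cluster names rest on marker genes. Cluster 7 was maturation ameloblast-like. Cluster 3, led by the enamel matrix gene Ambn, is called secretory ameloblast-like because 98.8% of its cells lay in an all-cells cluster that passed those markers; set against the rest of the lineage it did not pass them itself. Cluster 6, led by Dspp, passed both the preameloblast and the secretory markers, cluster 5 was stratum intermedium or papillary layer-like, and cluster 1 was outer enamel epithelium or stellate reticulum-like, although it also passed the pericyte or smooth muscle markers. Clusters 0, 2 and 4 are given by number: the list that 0 and 4 passed was the erythroid one, through haemoglobin genes, and the median cell of cluster 0 had 1092 UMIs in the control and 898 in the mutant. Cluster 8 held 91 mutant cells and 0 control cells, had the gland genes Dcpp2 and Dcpp3 among its leading genes, and gets values only. The clustering used these genes among others, so levels across clusters are a description. Memo1 itself was at 20.3 CPM in control and 17.7 CPM in mutant lineage cells (ratio 0.872, 0.771 to 0.987). Counts from outside the deleted part are included, so this level checks nothing.

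RefSeq (GRCm38.p6) start sites were matched for 6 of the 9 genes, at 9 start sites in all. Lama3, Itga6 and Itgb4 were not matched. The 250 bases before each start were searched on both strands for TGANTCA (the AP-1 site), TGTGGT (the core of the RUNX site), TATAAA and CCAAT. Of 32851 promoter windows of that length, 6.75% hold TGANTCA, 14% TGTGGT, 12.4% TATAAA and 33.8% CCAAT, and none of the 9 windows holds TGANTCA. Up to 150 bases outside exons are shown, 5′ to 3′ on the gene's strand, for Lamb3 and Itgb6, the matched genes on which the ameloblast results turn, and for Col17a1, which held the most motif matches. For Lamb3 and Itgb6 the stretch belongs to 1 of 2 start sites. The stretches lie at chr1:193301843-193301992 (plus strand), chr2:60722644-60722793 (minus) and chr19:47692095-47692244 (minus). Capitals mark motif matches.
Lamb3: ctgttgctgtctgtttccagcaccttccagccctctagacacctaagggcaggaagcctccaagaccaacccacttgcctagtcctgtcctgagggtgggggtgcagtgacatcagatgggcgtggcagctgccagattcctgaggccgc
Itgb6: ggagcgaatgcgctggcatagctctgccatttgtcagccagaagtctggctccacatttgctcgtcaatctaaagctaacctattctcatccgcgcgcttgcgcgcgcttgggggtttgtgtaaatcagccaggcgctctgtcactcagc
Col17a1: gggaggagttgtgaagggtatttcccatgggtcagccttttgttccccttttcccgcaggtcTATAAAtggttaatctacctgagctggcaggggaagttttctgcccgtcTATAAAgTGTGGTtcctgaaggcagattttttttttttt
The Col17a1 stretch has TATAAA at 140 and 91 bases before the start and TGTGGT at 84. A CCAAT on the other strand lies 31 bases before the start, outside the stretch shown. Of the windows not shown, 1 of the 2 Itga3 windows holds TGTGGT and CCAAT, and those of Itgb1 and Itga2 hold none. The Lamb3 and Itgb6 windows hold none of the 4 motifs. A match describes the letters only.

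Over the whole lineage none of the 8 measured genes was called in either direction, while 4.14% of the 7661 measured genes were called higher and 4.96% lower. Within the 8 clusters compared, the share of all measured genes called higher ran from 3.06% (cluster 4) to 15.6% (cluster 5). The share called lower ran from 1.81% (cluster 5) to 14.7% (cluster 7). Of the 72 pairs of the 9 genes and these clusters, 59 were measured, of which 5 were called higher and 5 lower. Scaling each cluster by TMM or median-of-ratios factors instead of its total changed that split to 2 higher and 9 lower, because these factors moved the log2 ratios of clusters 2, 3, 5 and 6 by -0.16, -0.14, -0.23 and -0.22. The 8 all-cells clusters of lineage cells group these cells in another way. There 58 of 72 pairs were measured, of which 3 were called higher and 3 lower. Lamb3, Itga3 and Itga2 had 0 calls there, while each had 1 in the ameloblast clusters. Of all measured genes, 3.61% were called higher and 4.6% lower in all-cells cluster 19, and 14.8% and 4.5% in all-cells cluster 16. The genes are described below by role.

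**Figure D1:**
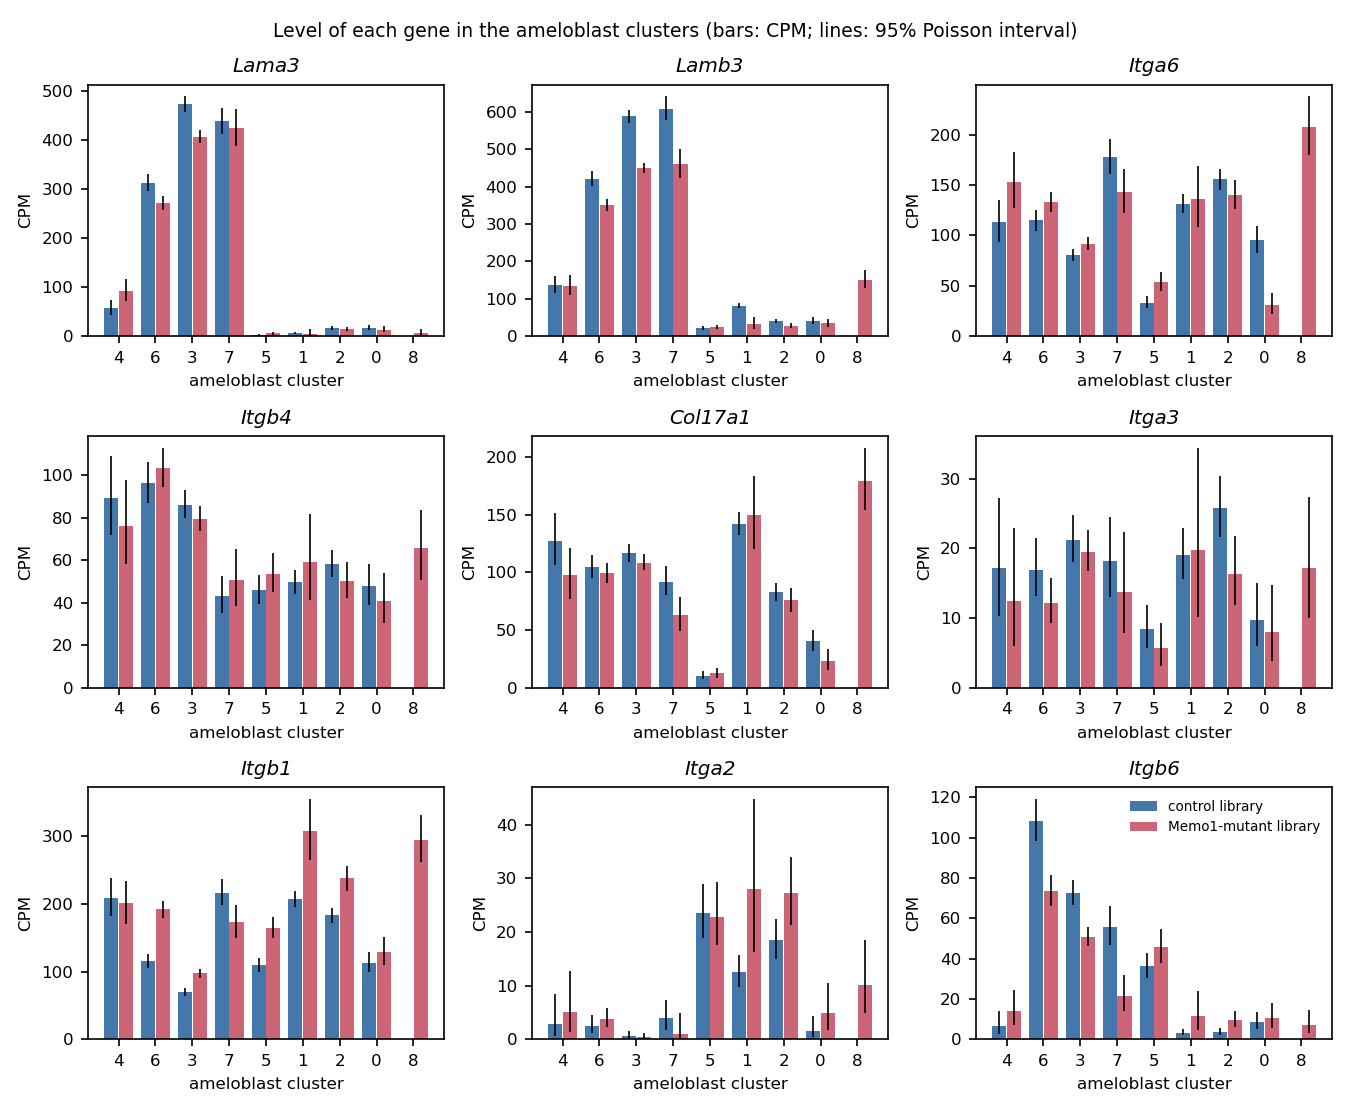
Level of each gene (CPM, bars from 0) in the 9 ameloblast clusters of the control (blue) and Memo1-mutant (red) libraries, with 95% Poisson intervals as lines. Lama3 and Lamb3 stand high in clusters 6, 3 and 7, Itga2 in clusters 5, 1 and 2, and Itgb6 in clusters 6, 3, 7 and 5. Cluster 8 has mutant cells only.

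Of the genes described here, Lama3 formed the steepest pattern across the compared ameloblast clusters in both libraries, from highest to lowest level. The other laminin chain, Lamb3, was less steep than Itga2 in both. Lama3, which encodes the α3 chain whose end the integrins bind, was at 474 CPM in control and 408 CPM in mutant cells of the secretory ameloblast-like cluster 3. It was at 439 and 426 CPM in the maturation ameloblast-like cluster 7 and at 313 and 271 CPM in cluster 6. In the stratum intermedium or papillary layer-like cluster 5 it had 1.83 and 5.62 CPM, from 7 and 15 counts. Ameloblast-like clusters were thus high and the cell layers behind them near the floor in both libraries. Clusters 3 and 7 were next to each other in both libraries, and their difference was inside the interval in the mutant but not in the control. Cluster 4 lay between, at 57.5 and 92.2 CPM, the one cluster where Lama3 was called higher (ratio 1.60, 1.13 to 2.29). There 20.3% of the mutant counts came from 1 cell, and the call did not hold without the top cell of each library. Of all genes measured in cluster 4, 3.06% were called higher and 4.95% lower. Erythroid markers summed to 299.8 CPM in its control cells and 23113 CPM in its mutant cells, and their part in the Lama3 value was not tested.

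Lamb3 (chr1:193207699-193343878, plus strand), the β3 chain, followed Lama3 across the 8 compared clusters (Pearson r 0.98 over clusters, which share the 2 libraries). It was at 588 and 449 CPM in cluster 3, 609 and 460 CPM in cluster 7, and 421 and 351 CPM in cluster 6. Clusters 3 and 7 could not be ordered within counting error in either library. Its lowest level was in cluster 5, at 21.5 and 24.0 CPM.

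Unlike the lineage as a whole, most of the separate clusters had less Lamb3 in the mutant library. In 5 of 8 clusters (1, 2, 3, 6 and 7) the interval lay below 1, and in none above. Clusters 0, 4 and 5 had intervals that included 1, with 40.8 and 34.6 CPM, 136 and 135 CPM, and 21.5 and 24.0 CPM. The ratio was 0.764 (0.732 to 0.797) in cluster 3, 0.756 (0.683 to 0.835) in cluster 7 and 0.834 (0.779 to 0.892) in cluster 6, short of the 1.5-fold limit. Only the outer enamel epithelium or stellate reticulum-like cluster 1 passed it, with 81.1 CPM in control cells and 32.9 CPM, from 20 counts, in mutant cells (ratio 0.405, 0.245 to 0.633). Thinned to 1000 UMIs a cell, the ratio was 0.368 but its interval included 1, and as a mean of per-cell CPM it was 0.652. With TMM factors cluster 2, at 40.7 and 27.2 CPM, was called lower as well. In cluster 1, 8.84% of all measured genes were called higher and 5.94% lower. The mutant held 75 cells there, and its outer enamel epithelium or stellate reticulum markers summed to 2801 CPM against 5097 in the control, with 0 of 7 higher. Their part in the Lamb3 value was not tested. Of the cells of cluster 1, 94.6% lay in all-cells cluster 12, which also held all cells of the mutant-only cluster 8. In all-cells cluster 12 Lamb3 was not called, and its ratio was on the other side of 1, at 1.22. There 13.7% of all measured genes were called higher and 3.4% lower.

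The lineage value of Lamb3 was nevertheless 268 CPM for control and 281 CPM for mutant cells (ratio 1.05, 1.02 to 1.08). The 3 laminin-rich clusters 3, 6 and 7 supplied 43.5% of the control lineage counts and 62.6% of the mutant ones. With each of the 8 clusters given equal weight, Lamb3 averaged 242 and 189 CPM. Lama3, at 191 and 235 CPM over the lineage (ratio 1.23, 1.19 to 1.28), averaged 166 and 154 CPM with equal weights. Both genes thus changed sides of 1 with the weighting of clusters. In such a pooled value, fewer cells of a type and less RNA per cell cannot be told apart.

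The 2 laminin chains were also set against each other, as Lamb3 counts per 100 Lama3 counts, a ratio that does not depend on the cluster total. Cluster 3 gave 124 (119 to 130) in control and 110 (105 to 115) in mutant cells, and cluster 7 gave 139 (128 to 150) and 108 (95.5 to 122). The intervals of the libraries did not overlap in either cluster. In cluster 6 they did, at 134 (125 to 144) and 129 (120 to 139). Cluster 5 had 1171 and 427, from 7 and 15 Lama3 counts.

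**Figure D2:**
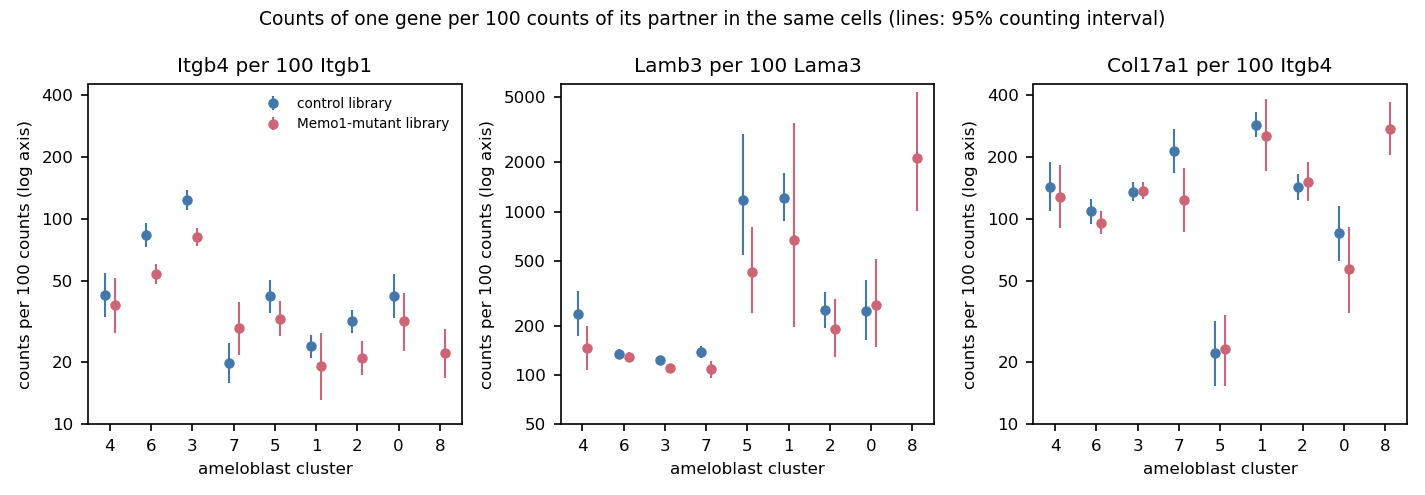
Counts of one gene per 100 counts of a partner in the same cells (log axis), by ameloblast cluster, for the control (blue) and the mutant (red), with 95% counting intervals. Itgb4 per 100 Itgb1 was lower in the mutant in clusters 2, 3 and 6, Lamb3 per 100 Lama3 was lower in clusters 3 and 7, and Col17a1 per 100 Itgb4 was lowest in cluster 5 in both libraries.

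Shares of cells with a UMI showed the same layers. Lamb3 was seen in 99.1% of control and 100% of mutant cells of cluster 3, with medians of 35309 and 32700.5 UMIs, and in 8.15% and 4.26% of macrophage-like cells, which should lack it, with medians of 14473 and 14240 UMIs. After each cell was thinned to 1000 UMIs, cluster 3 gave 47.1% (40.4 to 53.9, exact binomial) and 38.1% (32.5 to 44.0), cluster 5 0.948% and 3.45%, and macrophages 0.204% and 0.304%. Cluster 3 was thus far above the macrophage share in both libraries. In cluster 5 the interval of the control (0.115 to 3.38) included the macrophage share and that of the mutant (1.28 to 7.35) did not. Thinning left out 0 cells of these 3 groups.

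Itga6 (chr2:71745616-71858416, plus strand), which encodes the α6 subunit shared by the hemidesmosome integrin α6β4 and by α6β1, was spread over the lineage. Control levels ran from 33.2 CPM in cluster 5 to 177 CPM in cluster 7. Over all lineage cells it was at 110 and 108 CPM (ratio 0.986, 0.937 to 1.04). In the mutant, clusters 4, 7, 2, 1 and 6 lay between 133 and 153 CPM, and no neighbours among them differed beyond counting error.

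The largest difference of the 9 genes in their measured clusters was that of Itga6 in cluster 0. There it had 95.3 CPM from 196 control counts and 31.3 CPM from 39 mutant counts (ratio 0.329, 0.227 to 0.466), and it kept its call under all 8 alternatives. The share of cells with an Itga6 UMI was 8.83% and 3.13%, or 4.83% and 2.04% after thinning to 1000 UMIs, with 513 shallower control cells and 581 shallower mutant cells set aside. Erythroid-like cells, which should lack it and had medians of 10660 and 11224.5 UMIs, gave 0.395% and 1.81% after thinning. The mutant share was near that level and the control share above it. Of all genes measured in cluster 0, 10.1% were called higher and 6.29% lower. Beside it, maturation ameloblast markers in cluster 0 summed to 213 and 16.1 CPM, with Odam at 101 and 3.22 CPM, and 4 of 8 were at 0 in the mutant. Macrophage or monocyte markers summed to 448 and 942 CPM, with 7 of 7 higher, and erythroid markers to 15875 and 6271 CPM. Their part in the Itga6 value was not tested.

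In the stratum intermedium or papillary layer-like cluster 5, Itga6 went the other way, at 33.2 CPM and 53.6 CPM (ratio 1.61, 1.26 to 2.07). This cluster had the most genes called higher of any, 15.6% of those measured, against 1.81% lower. With TMM factors and without the 5% deepest cells the call did not hold, and in cells thinned to 1000 UMIs the ratio was 1.04 (0.289 to 3.61). Endothelium markers in cluster 5 summed to 19.6 and 61.9 CPM, with 7 of 7 higher in the mutant. They summed to 71.0 and 142 CPM in cluster 0 and 13.8 and 24.1 CPM in cluster 7, with 7 of 7 higher in each. The sums were 49.8 and 83.5 CPM in cluster 4, 61.5 and 31.4 CPM in cluster 6 and 33.6 and 28.4 CPM in cluster 3. Their part in the Itga6 values was not tested. For Itga6, clusters 4, 6 and 3 also had intervals above 1, at 1.36, 1.16 and 1.14, and cluster 7 below, at 0.804 (0.668 to 0.966). With TMM factors the clusters above 1 fell from 4 to 2.

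Itgb4 (chr11:115974709-116008412, plus strand), which encodes the β4 subunit that pairs with α6 and reaches the keratin filaments, was the steadiest of the 9. It was at 96.1 and 103 CPM in cluster 6, 86.2 and 79.4 CPM in cluster 3 and 43.2 and 50.7 CPM in cluster 7. No cluster had an interval off 1, and the ratios ran from 0.854 to 1.19. Over the lineage it was at 65.8 and 73.5 CPM (ratio 1.12, 1.05 to 1.19). With TMM factors 2 clusters fell below 1 and none passed 1.5-fold. The 3 leading clusters of the control, 6, 4 and 3, did not differ from each other beyond counting error. A step followed, from 86.2 CPM in cluster 3 to 58.1 CPM in cluster 2, and among the 5 clusters behind it no neighbours differed.

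Col17a1 (chr19:47646344-47692094, minus strand), the transmembrane collagen of the hemidesmosome, had its highest level among the 8 compared clusters in the outer enamel epithelium or stellate reticulum-like cluster 1, at 142 and 150 CPM. In the control, cluster 1 did not differ beyond counting error from the next, cluster 4. Cluster 3 had 117 and 108 CPM, cluster 6 104 and 99.0 CPM and cluster 7 92.0 and 62.8 CPM. Cluster 5 was lowest, at 10.2 and 12.4 CPM. Per 100 Itgb4 counts Col17a1 had 22.3 (15.3 to 31.7) and 23.1 (15.3 to 33.9) in cluster 5, against 287 and 253 in cluster 1, so these 2 parts of the hemidesmosome were in unlike proportion in the 2 layers in both libraries. Col17a1 was called lower in cluster 0, at 40.4 and 23.3 CPM (ratio 0.578, 0.365 to 0.891). That call was lost in 3 of 8 alternatives, each of which left out shallow or deep cells or thinned them. In cluster 7 the ratio was 0.683 (0.516 to 0.894), just short of the limit, and Col17a1 per 100 Itgb4 was 213 in the control and 124 in the mutant.

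**Figure D3:**
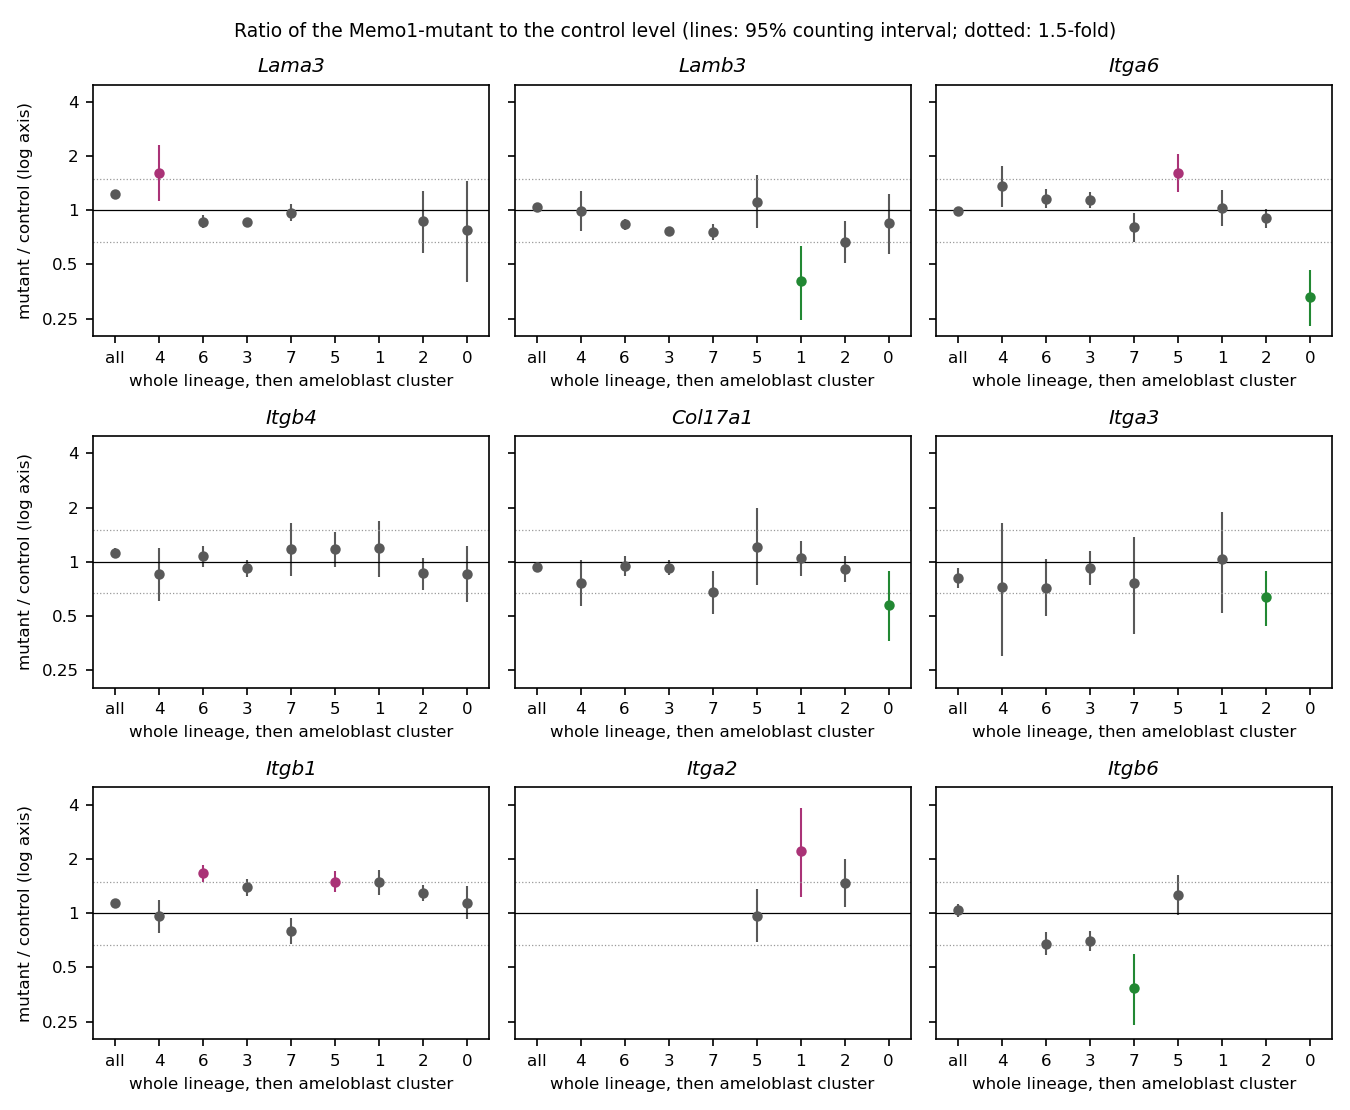
Ratio of the mutant to the control level (log axis) of each measured gene over the whole lineage and in each compared cluster, with 95% counting intervals; dotted lines mark 1.5-fold. Magenta points were called higher, green points lower and grey points neither, and unmeasured genes have no point. Itgb4 stays near 1 throughout, Lamb3 lies at or below 1 in most clusters and Itgb1 mostly above.

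Itgb1 (chr8:128685654-128733200, plus strand), the β1 subunit that pairs with α3, α2, α6 and many other α chains, was mostly higher in the mutant. In cluster 6 it was at 115 CPM in control and 192 CPM in mutant cells (ratio 1.67, 1.49 to 1.86). Cluster 5 had 109 and 164 CPM (ratio 1.501, 1.31 to 1.72). Both were called higher, but in cells thinned to 1000 UMIs the cluster 5 ratio was 0.943. Of all genes measured in cluster 6, 12.3% were called higher and 2% lower, and with TMM factors neither Itgb1 call held. Clusters 1, 2 and 3 also had intervals above 1, with 207 and 307 CPM, 183 and 238 CPM, and 69.8 and 97.3 CPM. Those 5 clusters stayed above 1 with TMM factors. The maturation ameloblast-like cluster 7 was the exception, at 217 and 173 CPM (ratio 0.798, 0.674 to 0.941).

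Mesenchymal cells hold much Itgb1, so their markers were counted in the compared clusters. Dental mesenchyme markers summed to 139 and 512 CPM in cluster 6, with 9 of 10 higher in the mutant and fibroblast markers at 33.2 and 428 CPM. In cluster 5 dental mesenchyme markers summed to 303 and 431 CPM and in cluster 3 to 124 and 269 CPM, with 9 of 10 higher in each. Cluster 2 had 812 and 1059 CPM, with 8 of 10 higher. Cluster 1, with Itgb1 at 207 and 307 CPM, had 528 and 595 CPM with 4 of 10 higher. Clusters 0 and 4 had Itgb1 intervals that included 1. Their dental mesenchyme markers summed to 1185 and 1755 CPM and to 381 and 631 CPM, with 7 of 10 higher in each. In cluster 7, where Itgb1 was lower, these markers summed to 633 and 538 CPM and fibroblast markers to 35.8 and 161 CPM. The part of all these markers in the Itgb1 values was not tested.

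The balance of the 2 β subunits differed between layers. Secretory ameloblast-like cells had the least Itgb1 of all lineage clusters in both libraries. Itgb4 per 100 Itgb1 counts was 124 (110 to 139) in control and 81.6 (73.9 to 90.1) in mutant cells of cluster 3. In cluster 6 it was 83.4 (72.7 to 95.5) and 53.8 (48.2 to 60.1), and in cluster 2 it was 31.7 (27.9 to 36.0) and 21.0 (17.4 to 25.3). In cluster 7 it was 19.9 (15.9 to 24.7) and 29.4 (21.6 to 39.4), the opposite direction with intervals that overlapped. Over the lineage the values were 46.4 and 45.4. In the control Itgb4 was thus far higher relative to Itgb1 in the secretory ameloblast-like cluster than in the maturation ameloblast-like cluster. Only such differences between clusters or libraries are read, not the size of the ratio.

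Itga3 (chr11:95044474-95076801, minus strand), the α3 subunit of the laminin-332 receptor α3β1, was low throughout, with 18.5 and 15.0 CPM over the lineage (ratio 0.812, 0.711 to 0.927). Among the 6 measured clusters the mutant level ran from 12.2 to 19.7 CPM, and no mutant neighbours in that order differed beyond counting error. Cluster 2 was called lower, at 25.7 and 16.3 CPM (ratio 0.633, 0.442 to 0.892), but thinning to 1000 UMIs turned the ratio to 1.02. In cluster 2, 14% of measured genes were called higher and 4.48% lower. Itga6 had 597 counts per 100 Itga3 counts in the control lineage and 724 in the mutant, with cluster 3 lowest in the control at 379.

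Itga2 (chr13:114833081-114932100, minus strand), the α2 subunit of the collagen receptor α2β1, was highest in clusters 5, 2 and 1, which had little Lama3. It was at 23.6 and 22.9 CPM in cluster 5, 18.4 and 27.2 CPM in cluster 2 and 12.5 and 27.9 CPM in cluster 1. All other compared clusters were under 5 CPM in both libraries, cluster 3 at 0.651 and 0.437 CPM. Only the cluster 1 ratio was called, at 2.23 (1.23 to 3.82) from 73 control and 17 mutant counts, and it did not hold with thinned cells, without the deepest cells or as a mean of per-cell values. Across the 8 clusters Itga2 and Lama3 ran opposite, with Pearson r -0.81 over clusters that share the 2 libraries. Itga2 was measured in only 3 of these, and r was 0.03 over all 26 compared clusters. Cluster 0 also had little Lama3, at 16.5 and 12.9 CPM, with Itga2 at 1.46 and 4.82 CPM. Over the lineage Itga2 was below the limit for being measured, at 9.10 and 8.09 CPM.

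Itgb6 (chr2:60598292-60722643, minus strand), which encodes the β6 subunit of αvβ6, an epithelial integrin that activates latent TGF-β, was lower in the mutant in all 3 ameloblast-like clusters. It was at 55.7 CPM in control and 21.5 CPM in mutant cells of the maturation ameloblast-like cluster 7, from 129 and 25 counts (ratio 0.386, 0.241 to 0.596). Cluster 3 had 72.6 and 50.9 CPM (ratio 0.701, 0.618 to 0.794) and cluster 6 had 108 and 73.6 CPM (ratio 0.679, 0.589 to 0.782), just inside the 1.5-fold limit. All 3 intervals lay below 1, and with TMM factors all 3 were called lower. The cluster 7 call held in 8 of 9 alternatives and was lost on thinning, where 6 control and 1 mutant cells kept an Itgb6 UMI. Of all genes measured in cluster 3, 7.8% were called higher and 2.85% lower, and none of the 9 genes was among them.

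In cluster 7, 10.6% of measured genes were called higher and 14.7% lower, so lower calls were common there. Its maturation markers summed to 38077 and 6048 CPM, with 0 of 8 higher, and its secretory markers to 218572 and 310880 CPM. The mutant cell with the most Odam, chosen after the data had been seen, held 12% of the Itgb6 counts, and leaving it out changed no call. The part of the marker differences in the Itgb6 value was not tested.

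Elsewhere in the lineage Itgb6 had 36.1 and 45.7 CPM in cluster 5, where the interval included 1 (0.985 to 1.63). Clusters 1 and 2 were below the limit for being measured, with 3.08 and 11.5 CPM and 3.65 and 9.42 CPM. The lineage value was 41.1 and 42.6 CPM (ratio 1.04, 0.955 to 1.13), and with clusters weighted equally it was 36.8 and 29.6 CPM. As with Lamb3, the lineage sum and the ameloblast-like clusters thus gave different ratios.

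The partners of Itgb6 were counted from a list of αvβ6 and TGF-β genes. Itgav, its α partner from the list of other integrins, was called higher in clusters 1, 5 and 6, with 53.6 and 96.1 CPM in cluster 6 (ratio 1.79, 1.52 to 2.12), and lower in cluster 0, with 30.1 and 16.9 CPM. In cluster 7 Tgfb1, the ligand that αvβ6 frees, was at 499 and 155 CPM (ratio 0.310, 0.264 to 0.364), the only 1 of 5 measured genes of the αvβ6 and TGF-β list called there. In cluster 5 Tgfb2 was at 39.8 and 90.0 CPM (ratio 2.26, 1.84 to 2.79). Of the 7 measured genes of that list, 1 was called higher in cluster 0, beside 10.1% of all measured genes. In cluster 1, 1 of 7 was higher and 2 lower, beside 8.84% and 5.94%. In cluster 4, 2 of 7 were lower, beside 4.95%. Over the lineage 0 of the 7 measured genes of that list were called, beside 4.14% higher and 4.96% lower of all measured genes.

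Inside the cell the hemidesmosome is held by plectin (Plec), dystonin (Dst) and the keratins Krt5 and Krt14. In cluster 7, 3 of the 6 genes listed as hemidesmosome partners were called lower, beside 14.7% of all measured genes. They were Krt14 at 2870 and 1277 CPM (ratio 0.445), Dst at 0.605 (0.494 to 0.736) and Plec at 0.593 (0.363 to 0.936). The median log2 ratio of the 8 measured genes of the 9 was -0.36 there and that of the partners -0.64, beside -0.04 over all measured genes. In clusters 1, 2, 3, 5 and 6 none of the 6 partners was called. Of all measured genes there, 7.8% to 15.6% were called higher and 1.81% to 5.94% lower. In cluster 0, 1 of 6 partners was called lower, beside 6.29% of all measured genes. In cluster 4, 1 was called higher, beside 3.06%, and over the lineage 1 was called higher, beside 4.14%.

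Parvb, β-parvin, 1 of 17 listed cytoplasmic links of integrins to actin, was lower in cluster 3 at 82.8 and 29.1 CPM (ratio 0.351), in cluster 6 at 65.6 and 20.7 CPM (0.315) and in cluster 7 at 187 and 86.0 CPM (0.461). Over the lineage 4 of 15 measured genes of that cytoplasmic list were lower, Parvb, Zyx, Tns3 and Tns4, and none higher, beside 4.96% lower and 4.14% higher of all measured genes. Tns4, which binds the tail of β1, was at 66.9 CPM in control and 0.86 CPM in mutant cells of cluster 7, from 155 counts and 1 count (ratio 0.0129, 0.000323 to 0.0727).

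Among basement membrane genes beyond laminin-332, 5 of 10 measured in cluster 5 were called higher, where 15.6% of all measured genes were, Col18a1, Frem1, Col4a2, Frem2 and Col7a1, the last being the anchoring fibril collagen that binds laminin-332, at 13.6 and 23.6 CPM (ratio 1.74, 1.18 to 2.56). In cluster 2, 4 of 10 were lower, against 4.48% of all measured genes, among them the α8β1 ligand Npnt at 196 and 108 CPM (ratio 0.549), and Fras1 was higher. Over the lineage Col18a1 and Col7a1 were lower, at ratios of 0.528 and 0.6. Other laminin chains gave 0 calls of 4 measured over the lineage, beside 4.14% higher and 4.96% lower of all measured genes. In cluster 0, 2 of 5 measured were lower, beside 6.29%. In cluster 1, 1 of 4 was higher and 1 lower, beside 8.84% and 5.94%. The maturation basal lamina genes Odam and Amtn were lower over the lineage, at ratios of 0.0172 and 0.166.

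The mutant-only cluster 8 had 295 CPM of Itgb1, 208 CPM of Itga6, 179 CPM of Col17a1 and 151 CPM of Lamb3. For Itga6 and Col17a1 these values were above those of every other lineage cluster. The order was not checked against counting error. For Col17a1 it rested on 178 counts in cluster 8, and mutant cluster 1 came next with 91 counts, at 150 CPM. Itgb4 stood at 65.5 CPM, Itga3 at 17.1 CPM and Itga2 at 10.1 CPM. Lama3 and Itgb6 were at 7.05 CPM each, 7 counts, so cluster 8 had the β3 chain with hardly any α3. Cluster 1 was alike, with Lama3 at 6.68 and 4.93 CPM. Lamb3 per 100 Lama3 counts was 2143 (1015 to 5421) in cluster 8. In cluster 1 it was 1213 (874 to 1727) in the control and 667 (198 to 3503), from 3 Lama3 counts, in the mutant. All cells of cluster 8 fell in the all-cells cluster that holds most of cluster 1.

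Outside the lineage 18 all-cells clusters were compared, and 48 of 162 gene and cluster pairs were measured. Of these, 1 was called higher and 5 lower. Over all genes, pooled across these clusters, 5.43% of 131029 gene and cluster pairs were called higher and 3.53% lower. Itgb1 alone was measured in all 18, from 12.8 and 17.4 CPM in erythroid-like cells to 884 and 811 CPM in pericyte or smooth muscle-like cells.

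Endothelium-like cells held an α6 and β4 set of their own. Itga6 was at 289 and 289 CPM in all-cells cluster 15 and at 271 and 255 CPM in all-cells cluster 8, above every compared lineage cluster. Itgb4 was at 53.4 and 62.4 CPM in all-cells cluster 8 and Lama3 at 52.2 and 60.7 CPM. Lamb3 was at 3.85 and 3.38 CPM there and Col17a1 at 2.57 and 2.18 CPM, near the erythroid-like cells at 5.21 and 6.37 CPM and at 1.60 and 2.89 CPM for the same 2 genes. All-cells cluster 8 thus had Lama3 with Lamb3 no higher than in cells that should lack it. The endothelium-like all-cells cluster 9 differed, with Lama3 at 32.3 and 22.3 CPM and Lamb3 at 36.6 and 19.5 CPM, from 17 and 14 counts. In all-cells cluster 15 Lama3 was lower, at 20.3 and 9.60 CPM (ratio 0.473). Glia-like cells, 17 in the control and 105 in the mutant and so not compared, had Itga6 at 160 and 176 CPM and Itgb4 at 143 and 127 CPM, with Lama3, Lamb3 and Col17a1 each at 0 to 3 counts.

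**Figure D4:**
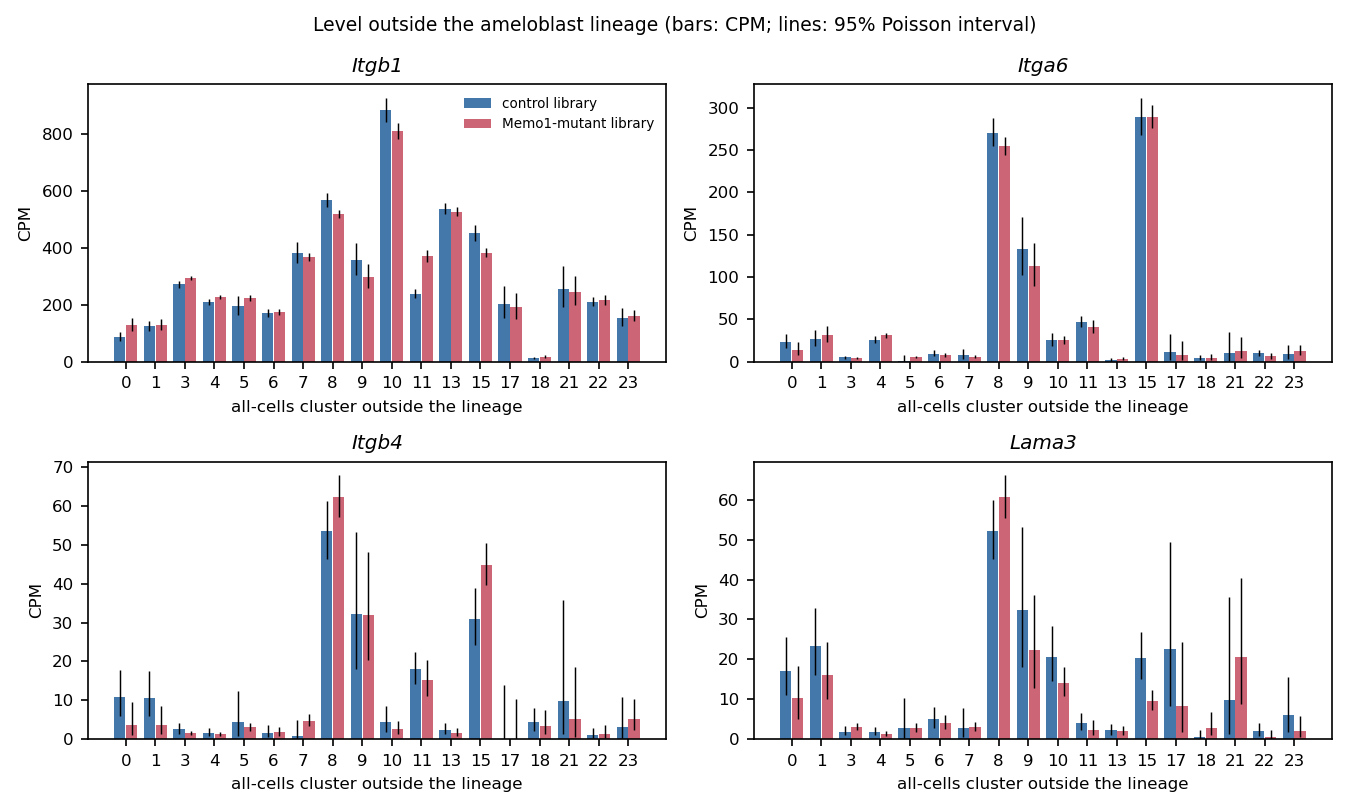
Level (CPM, bars from 0) of Itgb1, Itga6, Itgb4 and Lama3 in the 18 all-cells clusters outside the lineage, control in blue and mutant in red, with 95% Poisson intervals. Itga6 and Itgb4 are highest in the endothelium-like clusters 8, 9 and 15 and Lama3 in cluster 8, and Itgb1 is highest in the pericyte or smooth muscle-like cluster 10.

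Outside the lineage Itgb6 did not pass 6.45 CPM in any of the 18 clusters and Col17a1 not 20.1 CPM. Lamb3 reached 56.7 and 25.0 CPM in the unnamed all-cells cluster 17, from 15 and 9 counts, above its control level in ameloblast clusters 0, 2 and 5. The cycling cluster had the highest Col17a1, at 20.1 and 9.10 CPM (ratio 0.452), with Lamb3 at 17.0 and 9.77 CPM (ratio 0.576), both called lower, and Itgb1 at 239 and 372 CPM (ratio 1.56), called higher. Lamb3 was also called lower in the unnamed all-cells cluster 0, at 42.9 and 24.2 CPM, and in pericyte or smooth muscle-like cells, at 14.7 and 5.43 CPM. Erythroid-like cells, which should lack Lamb3, had 5.21 and 6.37 CPM, and the part of free RNA in these 3 lower values was not tested.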

How the data were processed

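The deposited values were whole-number UMI counts per gene and cell. Per the submitters' processing notes the authors used Cell Ranger (version not given in the sources used here), Seurat 3 and mm10. The other deposited columns, library, lineage call and cluster numbers, are the authors' labels, and the sources used here do not say how lineage cells were chosen. UMIs per cell ran from 501 to 49967 in the file, genes from 200 up and mitochondrial counts up to 30.0%. The 4 plotting coordinates and the dense copy of the matrix were not used, and doublets were not called.

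Counts were summed per library and cluster, with exact 95% conditional intervals of 2 Poisson counts for ratios and Clopper-Pearson intervals for shares. PCR copies are merged by UMI, and intervals cover counting error only. Clusters with at least 50 cells in both libraries were compared. The 9 genes and the lists were chosen with earlier results of these data known. All 9 are named in each comparison. From each of 7 other function lists (70 genes), up to 5 called genes per comparison could be named, with at least 50 counts and the nearer interval bound farthest from 1. A cluster name needed 3 markers at 1.5-fold and a mean log2 fold of 1, from 19 marker lists, limits set after the data had been seen. Scpppq1 of the maturation basal lamina list was not in the file analysed here. Positions are from GENCODE M21 (GRCm38), and promoters from RefSeq. Some results that the naming rule allows are not reported here. Scripts were tested on simulated data.

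Alternatives were TMM factors (edgeR 4.0.16), median-of-ratios factors (DESeq2 1.42.0), a total that leaves out haemoglobin, mitochondrial genes and the 20 top transcripts, stricter cell limits (1000 UMIs, 500 genes, 10% mitochondrial counts), thinning to 1000 UMIs, leaving out the 5% deepest cells or the top cell of a gene, means of per-cell CPM, equal cluster weights, a 2-fold limit and no minimum level. Python 3.11.15, numpy 2.4.6, pandas 2.3.3, scipy 1.17.1, matplotlib 3.10.9 and R 4.3.3 were used.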

Additional observations from a re-analysis of the deposited data

Results flagged for a closer look

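Itga6 differed between the libraries in opposite directions in 2 clusters of the lineage. In cluster 0 its mutant level was 0.329 of the control level, and in the stratum intermedium or papillary layer-like cluster 5 it was 1.61 times the control level. The cluster 0 call held in 8 of 8 alternatives, while the cluster 5 call was lost in 4 of 8, with a ratio of 1.04 in cells thinned to 1000 UMIs. Each value comes from 1 library per group, and the difference between the clusters was not tested.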

How the results depend on the processing

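No paired analysis was possible because each group is 1 library of 1 mouse, and for the same reason no replicate could be left out. Over the lineage the counts of genes called, 0 higher and 0 lower, were the same in all 11 alternatives. Over the 8 clusters, the 5 higher and 5 lower calls became 2 and 9 with TMM or with DESeq2 factors and 3 and 8 with totals without the most abundant transcripts. Thinned cells gave 2 and 1, and leaving out the deepest 5% of cells gave 2 and 5. The mean of per-cell CPM gave 7 and 10, no minimum level 8 and 5, and a 2-fold limit 1 higher and 3 lower. Thinning reversed 2 called ratios, Itga3 in cluster 2 (1.02) and Itgb1 in cluster 5 (0.943). Thinning leaves far fewer counts, and the cause of these changes was otherwise not tested. Among the other adhesion genes over these 8 clusters, 29 higher and 39 lower calls became 54 and 54 with no minimum level, and 13 higher and 21 lower at 2-fold. Of all measured genes, 3.06% to 15.6% were called higher and 1.81% to 14.7% lower in these clusters under the main rule. In all but clusters 4 and 7, more of all measured genes were called higher than lower. Leaving out the mutant cell with the most Odam, chosen after seeing the data, left 16 of 16 values within their intervals.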

Other observations

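The genes whose level ran most like each of the 9 across the 26 compared clusters were taken from 7388 genes, as a description over clusters that share the 2 libraries. The enamel matrix gene Enam was among the genes that ran most like Lamb3 (Pearson r 0.95). Lama3 ran most like the sulfotransferase Chst1 (0.93) and Enam (0.92). For Itgb6 the leading genes were Cdk18 (0.95), Plekhh1 and Cobl, and for Col17a1 Plek2 (0.96), the tooth transcription factor Pitx1 (0.93) and Nkx2-3 (0.93). Itga6 ran most like the tight junction gene F11r (0.95), Itgb4 like N4bp3 (0.91) and Itga6 (0.88), and Itga3 like Itga6 (0.88). Itgb1 ran most like Sept7 (0.90) and Itga2 like D8Ertd82e (0.85).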
